A study of Rattus with 9 samples.

Results

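Lymphatic endothelial cells line the vessels that drain fluid and leukocytes from the bile duct wall. In rat bile duct tissue profiled by droplet single-cell RNA sequencing, 803 of 150379 cells (0.534%) met a marker rule for them. A cell was taken when at least 2 of Prox1, Mmrn1, Pdpn and Reln were detected, together with Cdh5 or Egfl7, and when Ptprc, Epcam and Lum, which mark leukocytes, epithelium and fibroblasts, had no UMI. The members were therefore chosen by the measured counts of these 9 genes, which are given below as a description. A UMI is the tag that counts an RNA molecule once. The series set sham-operated rats (3 samples) beside rats given a liver transplant with ischemic injury, hereafter LT, and rats given the same transplant plus ligation of the splenic and gastric-duodenal arteries to raise hepatic arterial flow, hereafter LT_flow. Bile ducts of each transplanted arm were taken on days 1, 3 and 7 after surgery, with 1 sample per arm and day. The question put by the design is how the graft bile duct differs from sham and whether raised arterial flow alters it. The study's methods name male and female Sprague-Dawley rats and give their age in weeks. The sample labels give no strain, sex or age and no sham procedure. They also do not say whether the 2 or 3 libraries of a transplanted sample, or the sham samples, come from separate animals. Libraries of a sample were therefore summed, and all p-values measure the spread between these 9 samples, which may be technical in part. Where days are pooled, the spread within a transplanted arm also includes differences between days 1, 3 and 7.

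As background, the lymphatic lineage is held by the transcription factor Prox1, and its growth and survival run through VEGF-C acting on the receptor Flt4 with the co-receptor Nrp2. Lymphatic capillaries secrete Ccl21, the chemokine that draws dendritic cells and T cells bearing Ccr7 into the vessel, and carry the hyaluronan receptor Lyve1. Collecting vessels hold valves, whose cells depend on Foxc2, Nfatc1 and connexins. In a transplanted organ these vessels are cut at surgery and are the route by which donor antigen and leukocytes leave the graft.

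The samples held 40, 187 and 63 members in sham 1, 2 and 3. There were 42, 13 and 91 in LT on days 1, 3 and 7, and 208, 99 and 60 in LT_flow on the same days. Total UMIs per sample ran from 21270647 to 290590249, and the UMIs summed over members from 151518 in LT day 3 to 2635455 in LT_flow day 1, so LT day 3 carries the least certain values. All 13 LT day 3 members came from 1 library. The other libraries of that sample lost 2479 of 2923 and 3966 of 4312 barcodes to the limit on hemoglobin. They kept 437 and 337 cells, with no member among them. A member held a median of 3501 to 4034 UMIs in the sham samples and 6043.5 to 9044 in the transplanted ones. No member barcode was shared between libraries, and over all cells the highest overlap among 190 pairs of libraries was 1.19% of the smaller library. Free RNA, which leaks from broken cells into every droplet, made up an estimated 0.972% to 2.68% of member UMIs. The estimate treated the summed member UMIs of 13 genes of other cell types as free RNA, S100a8, S100a9 and Lyz2 among them.

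Some libraries stood apart. The second LT day 7 library (38 members) had 18 members in the top 5% of that library's cells by UMIs (at most 9 in any other library), 17 that held Mki67 or Top2a, and its summed Vim was 10750 CPM (UMIs of the gene per 1000000 summed UMIs) against 2209 to 4607 in the other 16 libraries with at least 10 members. Its Lyve1 level of 657 was under the 1336 to 2947 of those libraries. Other genes high in lymphatic cells were also lowest there. Sema3d was at 13.75 against 30.18 or more, Gpm6a at 1.719 against 9.837 or more and Il7 at 3.439 against 7.546 or more. Lbp was at 32.67 against 165.6 or more and Tbx1 at 96.28 against 123.2 or more. Its Ccl21, Flt4 and Nrp2 (24220, 77.37 and 285.4) lay inside the range of those libraries, and its Cst6 (969.7) above it. In sham 1 the summed level of mural cell markers was 629.9 CPM against at most 44.05 in every other sample, and the summed hemoglobin level was 714.7 against 19.79 to 354.5. The second LT_flow day 7 library (16 members) had a summed myeloid marker level of 5181 against at most 1604 in the others, and the third LT day 7 library (31 members) a lymphoid one of 940. Of that 940, Ccl5 made up 924.6. Summed myeloid markers were 49.47 to 361 in sham and 197.1 to 1511 in transplanted samples, and lymphoid markers 3.304 to 7.368 in sham and 268.1 and 300.2 on day 7. Epithelial markers ran from 33.81 to 158.3 and glial ones from 0 to 5.593.

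Pooled over all members, the label held against Lyve1 and Ccl21, which the rule did not use. Lyve1 had a UMI in 91.9% of members and in 6.4% of 5172 blood endothelial cells, a comparison gate requiring at least 2 of Flt1, Vwf, Plvap and Emcn and none of the 4 lymphatic markers. Ccl21 had one in 83.1% against 3.67%, at a median depth of 4.7e+03 UMIs in the blood gate and of 2.89e+03, 4.97e+03 and 8.3e+03 in members with 2, 3 and 4 markers. Of the rule's own genes, Mmrn1, a multimerin stored in endothelial granules, was detected in 97% of members, podoplanin (Pdpn) in 82.2%, reelin (Reln) in 74.7% and Prox1 in 69%. All 4 were detected in 339 members, 3 in 309 and 2 in 155. Just inside the rule, members with 2 markers held Lyve1 in 77.4%, Ccl21 in 72.9% and the blood endothelial receptor Flt1 in 7.74%. Just outside it, 421 cells with 1 marker held Lyve1 in 28.7%, Ccl21 in 14.7% and Flt1 in 58.7%. Members with all 4 markers held Lyve1 in 99.1%. As a description, summed Prox1 was 497, 624 and 768 CPM in sham, 132, 342 and 176 in LT on days 1, 3 and 7 and 120, 288 and 293 in LT_flow. Pdpn was 302, 423 and 363 in sham, 958, 516 and 480 in LT and 906, 427 and 321 in LT_flow. Prox1 was thus lowest, and Pdpn highest, in the day 1 samples. No test of either is given, because the rule selected on them. The rule's genes were not taken out of the fits within members, so they can be among the counts of calls there. Stab2, a scavenger receptor of liver sinusoids and lymph node sinuses, was detected in no member, and Plvap, the diaphragm protein of fenestrated vessels, was present in 49.7% to 57.8% of members against 94.6% of the blood gate, which used it. Emcn, also used by that gate, was in 45.8%, 57.6% and 73.2% of members with 2, 3 and 4 markers against 88.7% of it. For Vwf these were 8.39%, 2.91% and 3.54% against 37%.

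Lymphatic cells were a small and uneven share of the bile duct. They made up 1.63%, 1.88% and 0.526% of the cells in sham 1, 2 and 3. In LT they were 0.305%, 0.160% and 0.266% on days 1, 3 and 7, and in LT_flow 0.855%, 0.560% and 0.215%. Sham 3 lay inside the range of LT_flow, so the groups overlapped. The mean share was 1.34% ± 0.719 (SD, n = 3) in sham and 0.394% ± 0.265 (SD, n = 6) after transplantation, a difference of -0.95 points that did not pass (exact permutation p = 0.0714, two-sided, adjusted over 3 comparisons p = 0.15). LT averaged 0.243% ± 0.0751 (SD, n = 3), below every sham sample, which in a 3 against 3 design cannot go under p = 0.1 (exact permutation p = 0.1, adjusted p = 0.15). LT_flow averaged 0.544% ± 0.32 (SD, n = 3), 0.3 points above LT (exact permutation p = 0.3, adjusted p = 0.3).

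Set against blood endothelial cells alone, which leaves out the leukocytes that enter a graft, lymphatic cells were 13.9%, 34.0% and 12.4% of both gates together in the sham samples. They were 12.2%, 8.28% and 9.83% in LT, and 18.8%, 9.91% and 5.46% in LT_flow. The sham mean of 20.1% ± 12 rested on sham 2, and the transplanted mean was 10.7% ± 4.52. The difference of -9.37 points did not pass (exact permutation p = 0.167, adjusted p = 0.25), and without sham 2 it was -2.43. With cells thinned to 2000 UMIs, and those under 2000 left out, the differences were -0.949 and -9.59 points for the share of cells and of endothelial cells.

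**Figure D1:**
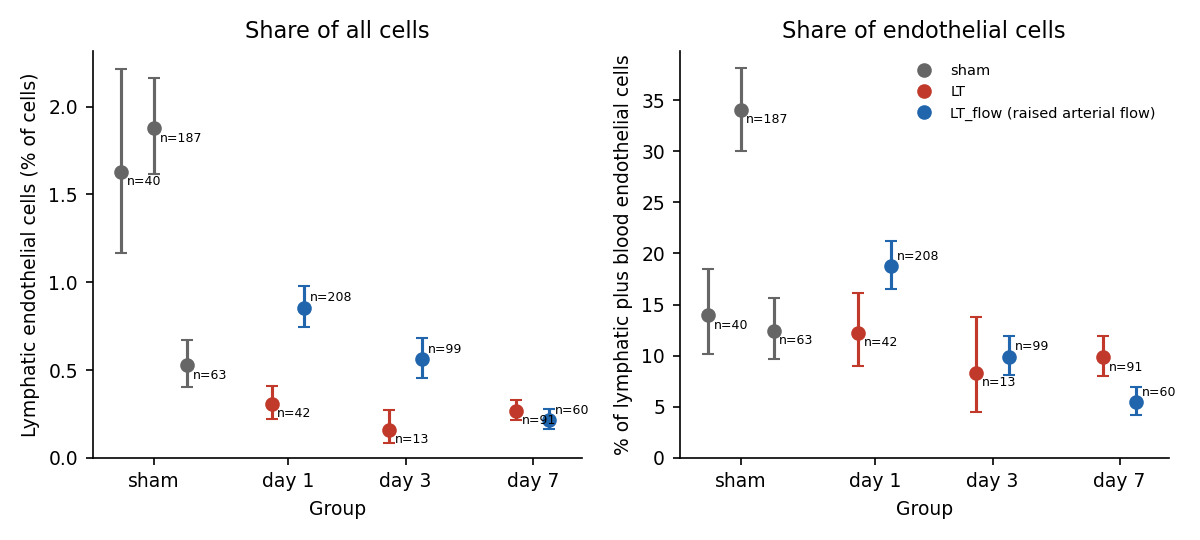
Lymphatic endothelial cells as a percentage of all cells (left) and of endothelial cells (right) in each of the 9 samples, with 95% exact binomial intervals that cover counting error only. Sham samples spread from 0.526% to 1.88% of cells, and the 3 LT samples lie between 0.160% and 0.305%.

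Against blood endothelial cells of the same samples, the members differed in many genes that the rule did not use. Counts were summed per sample and gate and compared by edgeR's quasi-likelihood test with the sample as a block. The genes of both rules were taken out before this fit, so they are in none of its counts, lists or examples. Of 7238 genes tested, 2174 passed an adjusted p of 0.05 (30.0%), 934 higher (12.9%) and 1240 lower (17.1%) in lymphatic cells. All 7 tested members of a lymphatic identity list were higher, with a median log2 difference of 3.47 against -0.025 over all genes tested. Ccl21 ran from 15100 to 90670 CPM in lymphatic sums and from 2.43 to 166 in blood sums (log2 difference 11.12 ± 0.60 SE, adjusted p = 4.32e-10). Lyve1 was 1124 to 2417 against 4.61 to 40.4, 116-fold higher (adjusted p = 1.33e-09). The VEGF-C receptor Flt4 was 77.5 to 250 against 7.1 to 14.6, 11.1-fold higher, and Nrp2 was 3.08-fold higher. Tbx1, a T-box factor of lymphatic development and a member of the identity list, was 22.2-fold higher. The ranges of Ccl21, Lyve1 and Flt4 did not meet in any sample. Among the genes with the highest mean CPM in members, without mitochondrial and ribosomal protein genes, were Ccl21 (54938), Tmsb4x, B2m, Ifitm3, Ubb, Fth1, Vim, Igfbp7, H3f3a, Tpt1, Mt1, Cd9, Pfn1 and Eif1 (2742).

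The transcription factor list gave 7 higher and 1 lower of 10 tested. Foxc2 was 6.86-fold higher, while Nfatc1 differed by 1.43 on the log2 scale. Klf4 (0.38 higher, adjusted p = 0.0365) and Sox18, the one that was lower (-0.37, adjusted p = 0.0209), missed the threshold in 6 and 4 of 18 alternative settings. The valve and collector list gave 8 higher and 2 lower of 11 (median log2 difference 0.78). Among guidance cues, Sema3d ran at 45.8 to 162 against 0 to 0.923 CPM, and Sema3a, which steers valve formation, at 39.4 to 99 with no UMI in any blood sum. The membrane glycoprotein Gpm6a ran at 10.6 to 130 against 0 to 0.489. Il7, the cytokine that T cells need to survive, was 12.3 to 65.9 against 0 to 2.45, 25.9-fold higher (adjusted p = 1.3e-08). The other genes among the 12 largest positive differences were Slc38a4, Slc45a3, Lypd6, Sh3gl3, Tc2n, Cst6, Tgfa and Pard6g, with log2 differences of 7.12 to 9.42.

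Lymphatic cells also held more Angpt2 (7.72-fold), a ligand of Tie2 made by remodelling endothelium, more Cldn5 (10.8-fold), the claudin of endothelial tight junctions, and more Lbp (28.8-fold), the carrier of bacterial lipopolysaccharide. Lower in them were Gpihbp1, which anchors lipoprotein lipase on capillaries (at 0 in 8 of 9 lymphatic sums against 90.5 to 1691), the chemokine Cxcl12 (0 to 44 against 51 to 1801), the matrix protein Sparc (31.3-fold), Cd34 (29.8-fold), Esam (16.7-fold) and Epas1, the hypoxia factor of blood endothelium (9.05-fold). The other genes among the 12 largest negative differences were Igfbp2, Tmem45b, Fam167b, the apelin receptor Aplnr, Pcdh17, Alpl, the chemokine Ccl19, Higd1b, Igfbp3 and Exoc3l2, from -7.86 to -6.06 on the log2 scale. The junction list split, with 3 higher and 6 lower of 11. All 5 MHC class II genes tested and 8 of 11 MHC class I processing genes were lower, with median log2 differences of -1.84 and -0.53. Kdr and Tie1, receptors that both kinds of endothelium use, differed by -0.05 ± 0.15 and -0.17 ± 0.14 (adjusted p = 0.854 and 0.401). Markers of other cells moved with these genes. All 5 tested mural, all 4 fibroblast and all 3 erythroid markers were lower in members, as were 4 of 10 myeloid ones (Lyz2, C1qa, S100a8 and Cd14) and 2 of 3 epithelial ones, with medians of -4.18, -1.72, -0.55, -0.67 and -0.56. The part of RNA from these cells in the differences, those of the MHC genes included, was not tested.

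**Figure D2:**
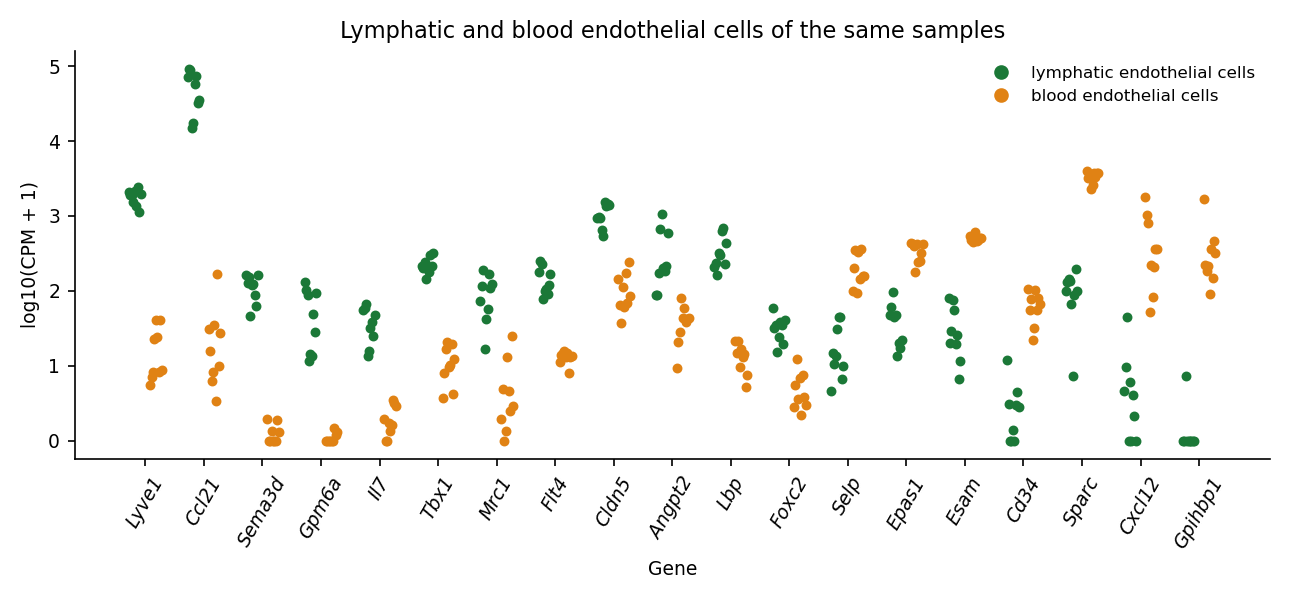
CPM of 19 genes in the summed lymphatic (green) and blood endothelial (orange) cells of each of the 9 samples, 1 point per sample, on a log10(value + 1) axis. The lymphatic values of Ccl21, Lyve1, Sema3d and Flt4 lie above every blood value, and those of Esam, Sparc and Epas1 below.

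With both transplanted arms and all days pooled, few genes in the members set the 6 transplanted samples apart from sham. Of 6319 genes, 42 passed (0.665%), 9 higher (0.142%) and 33 lower (0.522%), with 1231 at an unadjusted p under 0.05. The count rested on few samples. It was 2 without sham 2, 6 without sham 3, 23 without sham 1, 26 without LT_flow day 3 and 125 without LT_flow day 1, and 23 when the second LT day 7 library was left out.

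Tgfbi, a matrix protein that TGF-beta induces, was at 166, 159 and 138 CPM in sham and at 9.2 to 28.4 in the 6 transplanted samples. It fell 9.52-fold (log2 difference -3.25 ± 0.29, adjusted p = 0.000525) and passed in all 19 alternative settings. Tppp3, a tubulin polymerising protein, was at 62.6, 192 and 66 in sham and at 0 to 4.17 after transplantation (log2 difference -5.71 ± 0.53, adjusted p = 0.000525), again in every setting. For both genes each sham sample lay above each transplanted one, which the rule for naming genes required. Without sham 2 these were the 2 genes that still passed. The extracellular protein Fndc1 was at 62.6, 165 and 125 in sham and 2.33 to 24.2 after transplantation (log2 difference -3.86 ± 0.43, adjusted p = 0.00178, and 0.0502 without sham 2).

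Both subunits of the nitric oxide receptor fell. Gucy1a1 was 46.2 to 72.7 in sham and 0 to 6.26 after transplantation (log2 difference -4.19, adjusted p = 0.0145), and Gucy1b1 36.3 to 89.2 and 2.33 to 31.1 (log2 difference -3.16, adjusted p = 0.0169). Without sham 2 their adjusted p was 0.154 and 0.16. That of Gucy1b1 without sham 1 was 0.0511, and that of Gucy1a1 without sham 3 was 0.0505. Other genes that fell were the guidance ligand Ntn1 (log2 difference -3.62, adjusted p = 0.0295) and the growth factor Ptn (-4.68, adjusted p = 0.02). Ntn1 missed the threshold without sham 1, sham 2, sham 3 or LT_flow day 3 (adjusted p = 0.105, 0.137, 0.153 and 0.0573). For Ptn the LT_flow day 3 libraries held 26.88 and 57.92 CPM against 38.96 in sham 3. The second of them thus lay inside the sham range. Lama4 (-1.39, adjusted p = 0.0295) and Ltbp4 (-2.06, adjusted p = 0.0391), which encode a laminin chain and a binder of latent TGF-beta, fell too. The immediate early gene Fos also fell, from 3636, 1441 and 1745 to 670 to 932 (adjusted p = 0.0391). The LT day 7 libraries held it at 1569, 304.3 and 1207, the first of them inside the sham range. Nrcam, Pcp4l1, Lrrn1, Khdrbs3, Slc10a1 and Tll1 were among the 12 largest decreases, with 16.5 to 68.3 CPM in sham and 0 to 20.9 after transplantation. Their adjusted p ran from 0.00178 to 0.0423, and Khdrbs3, Slc10a1 and Tll1 passed in 7 of 14, 10 of 17 and 10 of 18 alternatives.

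Among the genes that rose, Gpx3, a secreted selenium-dependent glutathione peroxidase, was at 77.4, 93.6 and 109 in sham and at 233 to 631 in transplanted samples, 4.82-fold higher (log2 difference 2.27 ± 0.35, adjusted p = 0.0169). The serpin Serpinb6b was at 51.6, 18.7 and 33 in sham and 146 to 529 after transplantation (log2 difference 3.32 ± 0.48, adjusted p = 0.0145). Pmepa1, which TGF-beta induces and which damps its signal, was at 36.8 to 69.3 and 124 to 267, 3.27-fold higher (adjusted p = 0.0284). All 3 ranges lay fully above sham, which the rule for naming genes required. Single libraries did not all do so. Gpx3 was at 41.26 in the second LT day 7 library against 81 to 107.2 in sham. Pmepa1 was at 47.54 in the third LT_flow day 1 library against 38.57 to 68.19 in sham. Without sham 2 the adjusted p of Gpx3, Serpinb6b and Pmepa1 was 0.15, 0.11 and 0.16, and without sham 3 it was 0.101, 0.0936 and 0.101. Without sham 1 that of Gpx3 was 0.0653 and that of Pmepa1 0.0747, and that of Pmepa1 without the second LT day 7 library 0.0992.

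Galectin-9 (Lgals9, 1.70, adjusted p = 0.0279), the sterol enzyme Fdps (2.15, adjusted p = 0.041) and the proteasome activator Psme2 (1.39, adjusted p = 0.0423) also rose on the log2 scale, as did Fam49b (1.53, adjusted p = 0.0423, past the threshold in 9 of 19 alternatives). Without sham 1 Lgals9, Fdps and Psme2 missed the threshold (adjusted p = 0.0712, 0.117 and 0.0712). Without the second LT day 7 library Fdps and Psme2 missed the threshold (adjusted p = 0.108 and 0.0644), and without sham 3 so did Lgals9, Fdps and Psme2 (0.153, 0.241 and 0.25). Lgals9 passed in 14 of 19 alternatives, Fdps in 9 and Psme2 in 7. S100a9 and Slpi, abundant in neutrophils, passed as well. Of their member UMIs 57.8% and 74.2% were put down to free RNA, an estimate that S100a9 helped to set. With free RNA subtracted they no longer passed (adjusted p = 0.101 and 0.357). Over all 19 alternatives, that one among them, their log2 differences ran from 4.44 to 5.19 and from 3.37 to 3.9. Psme2 was the gene called of 11 in the MHC class I list (median log2 difference 1.39 against 0.014 over all genes tested), and none passed of 8 in lymphatic identity, 17 in interferon response or 14 in cell cycle, whose medians were -0.72, 1.49 and -0.02.

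LT alone against sham gave 11 genes of 6319 (0.174%), 5 higher (0.0791%) and 6 lower (0.0950%), with 1243 at an unadjusted p under 0.05. They were 1 without sham 2 or without LT day 3, 2 without sham 3, 3 without LT day 7, 5 without sham 1, without LT_flow day 7 or without the second LT day 7 library, and 180 without LT_flow day 1. Tgfbi fell 13.1-fold (log2 difference -3.71 ± 0.40, adjusted p = 0.00463), in all 19 alternatives, and Tppp3 and Fndc1 fell by 5.77 and 4.61 on the log2 scale (adjusted p = 0.0161 each), and both missed it without sham 2 (adjusted p = 0.17 each), LT day 3 (0.082 and 0.0613) or LT day 7 (0.0795 each). The other calls were S100a9, Slpi, Serpinb6b, Gpx3 and Pmepa1, which were higher, and Nrcam, Pcp4l1 and Ptn, which were lower. Serpinb6b passed in 15 of 19 alternatives, and the other 7 genes in 7 to 9 of 16 or 19. LT and the pooled comparison share the same sham samples.

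Raised flow against LT gave 0 calls of 6319 (0.00%) by edgeR's quasi-likelihood test and 0 by DESeq2, with 217 genes at an unadjusted p under 0.05 and 28 calls when low counts were not filtered. Ccl21 differed by 0.30 ± 0.52 and Lyve1 by 0.72 ± 0.24 on the log2 scale (adjusted p = 0.999 each). With the day entered as a block for pairing LT and LT_flow samples, the count of calls stayed at 0.

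Crem, the cAMP-responsive transcription factor that the study's paper follows in biliary epithelium, was at 95.8, 164 and 119 CPM in sham and at 58.8 to 137 after transplantation. Vim, the intermediate filament that paper pairs with it, was at 3345, 4710 and 3809 in sham and 2472 to 8758 after transplantation. Neither passed in LT against sham (log2 difference -0.35, adjusted p = 0.664, and 0.48, adjusted p = 0.458). The highest Vim value, LT day 7, came from the second library of that sample, and without that library the Vim difference was -0.09.

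Split by day, with the LT and LT_flow samples of a day as 2 samples, day 1 gave more calls against sham than the pooled comparison by edgeR and by DESeq2 (562 against 163), while day 7 gave more by edgeR and fewer by DESeq2 (93 against 163). Day 3 was not tested on its own. The comparisons by day were added after the data had been seen and share the same sham samples. On day 1, 1001 of 6903 genes passed (14.5%), 497 higher (7.20%) and 504 lower (7.30%). The count was 160 without LT day 1, 172 without LT_flow day 1, 369 without sham 2 and 425 without sham 3, with fewer samples in the fit.

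The lymphatic chemokine and receptors were low on day 1. Ccl21 was at 72250, 93910 and 92460 CPM in sham, 15760 and 17880 on day 1 in LT and LT_flow, 57120 and 74950 on day 3, and 32670 and 37440 on day 7. Both day 1 values lay under every other sample, and Ccl21 took 1.365% and 1.672% of member UMIs then against 7.565% to 9.184% in sham. It fell 5.1-fold on day 1 (log2 difference -2.35 ± 0.30, adjusted p = 0.000853), in all 19 alternatives. Across the 5 day 1 libraries with at least 10 members it ran from 11880 to 29100. The day 7 libraries were uneven, at 37030, 24220 and 41590 in LT and 73440, 14010 and 10970 in LT_flow, so 2 of the 3 LT_flow day 7 libraries lay in or under the day 1 range and the level of that sample rested on its first library. On day 7 the difference from sham was -1.30 ± 0.29 (adjusted p = 0.0317), past the threshold in 9 of 19 alternatives. Its adjusted p was 0.0649 without sham 1, 0.194 without sham 2, 0.201 without sham 3, 0.0688 without LT day 7 and 0.103 without the third LT day 7 library.

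Of 6 genes tested in the VEGF-C and angiopoietin axis, 5 fell and 1 rose on day 1 (median log2 difference -1.52 against -0.051 over all genes tested). Flt4 was at 184, 259 and 238 in sham and 80.9 and 103 on day 1, 2.44-fold lower (adjusted p = 0.0117). Kdr, the main VEGF-A receptor, was at 402, 439 and 462 and then 131 and 145, 3.12-fold lower (adjusted p = 0.00461), and Nrp2 at 225, 415 and 439 and then 95.6 and 136, 3.06-fold lower (adjusted p = 0.00691). The angiopoietin receptors Tie1 and Tek (Tie2) fell by 1.42 and 1.67 on the log2 scale (adjusted p = 0.00952 and 0.016). No sham sample met a day 1 sample for any of these 5 receptors. With so few samples such separation can arise by chance, and its share over all genes is not given here. Without LT day 1 none of the 5 passed (adjusted p = 0.154, 0.0766, 0.115, 0.115 and 0.157 in the order given), nor without LT_flow day 1 (0.0852, 0.061, 0.0535, 0.1 and 0.0669).

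The ligand of Tek moved the other way. Angpt2, which competes at Tie2 during vessel remodelling, was at 88.4, 90.3 and 178 in sham, 703 and 1088 on day 1, 199 and 190 on day 3 and 216 and 624 on day 7. It rose 7.72-fold on day 1 (log2 difference 2.95 ± 0.42, adjusted p = 0.000991) and 3.57-fold on day 7 (adjusted p = 0.0398). The day 7 call rested on LT_flow day 7, without which its adjusted p was 0.241, on sham 1 and sham 2 (0.0748 and 0.199) and on the third LT day 7 library (0.103).

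In the valve and collector list 4 of 12 fell and none rose (median log2 difference -0.76). Nfatc1, the calcium-regulated factor of valve cells, was at 47.9, 68.3 and 59.4 in sham and 16.6 and 14.6 on day 1 (log2 difference -1.96, adjusted p = 0.00651). The claudin Cldn11 was at 84.7, 49.6 and 79.2 and then 7.36 and 18.3 (-2.18, adjusted p = 0.0151), the ephrin Efnb2 fell by 1.47 (adjusted p = 0.0192) and connexin 43 (Gja1) by 1.20 (adjusted p = 0.035). Without LT day 1 these 4 had adjusted p of 0.053, 0.113, 0.187 and 0.233, and without LT_flow day 1 of 0.109, 0.0618, 0.0972 and 0.2. In the lymphatic identity list 4 of 8 fell and none rose (Flt4, Ccl21, Nrp2 and Stab1, median log2 difference -0.85). Lyve1 was at 2133, 1974 and 2028 in sham and 1587 and 2186 on day 1 (log2 difference -0.10 ± 0.32, adjusted p = 0.864), and Tbx1 and Foxc2 differed by -0.30 and -0.94 (adjusted p = 0.543 and 0.137).

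Of 15 genes tested for chemokines and leukocyte exit, 3 fell (Ccl21, Il7 and Ackr4) and 2 rose (Ackr3 and the chemokine Cxcl16, by 3.21 on the log2 scale, adjusted p = 0.00675), with a median of -0.19. Il7 was at 55.3, 60.6 and 69.3 in sham and 12.9 and 15.4 on day 1, 4.16-fold lower (log2 difference -2.06 ± 0.37, adjusted p = 0.00439), with an adjusted p of 0.0508 without LT day 1 and 0.0624 without LT_flow day 1. Ackr4, the receptor that clears Ccl21, had 70, 18.7 and 3.3 in sham and no UMI in either day 1 sample. The scavenger receptors Mrc1 and Stab1 fell by 1.98 and 2.98 (adjusted p = 0.0159 and 0.0146). Ackr3, which clears Cxcl12 and adrenomedullin, rose from 170, 310 and 191 to 520 and 457 (log2 difference 1.10, adjusted p = 0.022), while Calcrl, the adrenomedullin receptor, fell by 1.52 (adjusted p = 0.00674). Mrc1, Stab1, Ackr3 and Calcrl missed the threshold without LT day 1 (adjusted p = 0.148, 0.0664, 0.124 and 0.107).

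**Figure D3:**
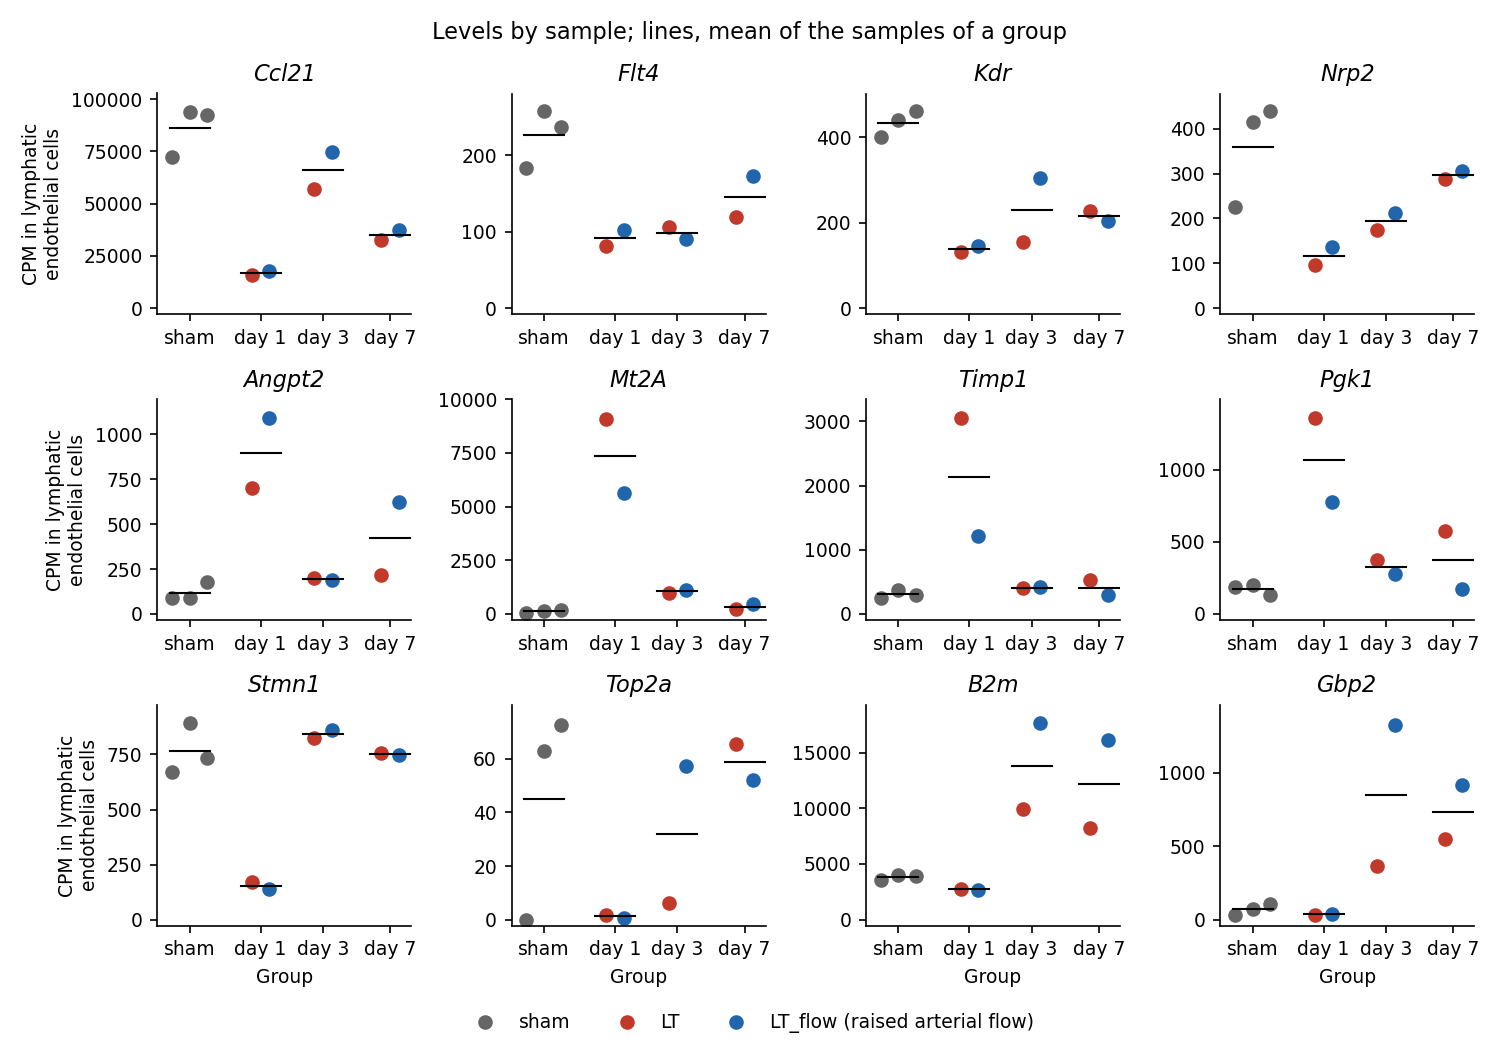
CPM of 12 genes in the lymphatic cells of each sample, by group and day; each point is 1 sample and each line the mean of a group. On day 1 both arms lie below sham for Ccl21, Flt4, Kdr, Nrp2 and Stmn1 and above it for Angpt2, Mt2A, Timp1 and Pgk1, and on day 7 both lie above sham for B2m and Gbp2.

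The metallothioneins bind zinc and copper and rise in stressed cells. Mt2A was at 62.6, 131 and 208 in sham, 9075 and 5619 on day 1, 964 and 1138 on day 3, and 226 and 442 on day 7. It was 54.8-fold higher on day 1 (log2 difference 5.78 ± 0.44, adjusted p = 9.5e-06), and Mt1 16.2-fold (4.02 ± 0.42, adjusted p = 0.000217). Both were lower on day 7 than on day 1, by 4.47 and 3.46 on the log2 scale, and passed in all 19 alternatives of each comparison. Mt1m, another metallothionein gene, was at 0 to 3.68 in sham and 132 and 107.5 on day 1 (6.26, adjusted p = 7.02e-05).

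Of 16 genes in the hypoxia and glycolysis list, 6 rose and none fell on day 1 (median log2 difference 1.13). The glycolytic kinase Pgk1 was at 188, 203 and 132 in sham and 1356 and 773 on day 1, 6.06-fold higher (adjusted p = 0.00247). Enolase (Eno1) was at 118, 139 and 162 and then 789 and 474 (log2 difference 2.17, adjusted p = 0.00167), and lactate dehydrogenase A (Ldha) at 332, 362 and 320 and then 1249 and 869 (1.65, adjusted p = 0.00627). Aldoa, Bnip3 and Hif1a rose by 1.21, 2.31 and 1.17 on the same scale (adjusted p = 0.0117, 0.0167 and 0.0181). Without LT day 1, Pgk1 and Eno1 still passed and Ldha, Aldoa, Bnip3 and Hif1a did not (adjusted p = 0.0636, 0.13, 0.281 and 0.146).

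In the TGF-beta list 3 rose and 1 fell of 17 (median log2 difference -0.13). The ligand Tgfb2 was at 18.4, 22 and 16.5 in sham and 58.9 and 172 on day 1 (2.61, adjusted p = 0.00643). Its target Ccn2 rose by 2.87 (adjusted p = 0.00773) and the co-receptor endoglin (Eng) by 1.48 (adjusted p = 0.0134). The type II receptor Tgfbr2 was at 170, 94.7 and 82.5 in sham and 12.9 and 20.3 on day 1 (-2.64 ± 0.37, adjusted p = 0.000991). The ligand and its receptor moved in opposite directions. Without LT_flow day 1 Tgfb2, Ccn2 and Eng missed the threshold (adjusted p = 0.153, 0.0927 and 0.0869).

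Timp1, the inhibitor of matrix metalloproteinases, was at 254, 368 and 300 in sham and 3048 and 1215 on day 1, 6.88-fold higher (adjusted p = 0.000853), and the metalloproteinase Mmp14 fell by 1.40 on the log2 scale (adjusted p = 0.0235, and 0.178 without LT day 1). Lipocalin-2 (Lcn2), which binds bacterial iron carriers, was at 136, 96.9 and 125 and then 692 and 668 (2.54, adjusted p = 0.00461). The platelet-derived growth factor gene Pdgfb, a signal to mural cells, was at 0, 7.71 and 13.2 and then 71.7 and 109 (3.63, adjusted p = 0.00329). The interferon list had no call of 17 on day 1 (median log2 difference -0.28), MHC class II none of 5 (-0.95), and Vim differed by -0.10 (adjusted p = 0.891). Crem fell by 1.11 ± 0.30 (adjusted p = 0.0232), with an adjusted p of 0.126 without sham 2, 0.174 without LT day 1 and 0.202 without LT_flow day 1.

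Other genes among the 12 largest increases on day 1 were the sodium channel subunit Scn3b, Mtmr10, the activin subunit Inhbb, the activin binder Fstl3 and the collagen Col8a1. They ran at 0 to 36.3 CPM in sham and 27.6 to 215 on day 1, with adjusted p of 0.000853 to 0.00759. Mtmr10 missed the threshold without LT_flow day 1 (adjusted p = 0.0707) and Inhbb without LT day 1 (0.0756). S100a8 and S100a9 were also among them, with 100% and 57.8% of their member UMIs put down to free RNA. Both genes were in the set from which free RNA was estimated, so these shares follow in part from that choice. On the other side, the cytokine Tnfsf10 (TRAIL) was at 25.8, 30.8 and 75.8 in sham and 0 and 1.62 on day 1 (adjusted p = 0.00432, and 0.0584 without LT_flow day 1), and Tril, a partner of Toll-like receptors, at 36.8, 31.9 and 56.1 and then 0 and 1.62 (adjusted p = 0.00146), in all 19 alternatives. Madcam1, the addressin that binds lymphocyte integrins, Krt77, Art3 and Cpq were at 3.3 to 36.8 in sham and 0 to 0.406 on day 1. None of these 4 passed without LT_flow day 1 (adjusted p = 0.281, 0.262, 0.263 and 0.0854).

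Genes of pancreatic acinar cells were also among the 12 largest decreases on day 1. Trypsinogen (Prss1) was at 3.68, 151 and 214 CPM in sham and 0 and 3.25 on day 1, pancreatic lipase (Pnlip) at 7.37, 45.2 and 69.3 and then 0 and 0.406, and the phospholipase Pla2g1b at 3.68, 18.7 and 89 and then 0 and 0.812. Their levels were high in sham 2 and sham 3, and 69.7%, 54.0% and 70.4% of their member UMIs were put down to free RNA. None passed without LT_flow day 1 (adjusted p = 0.0563, 0.0686 and 0.128). On day 7 Prss1 and Pnlip were called lower than sham as well, and not with free RNA subtracted (adjusted p = 0.0741 and 0.101). The part of acinar RNA in other differences from sham was not tested.

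Cell cycle genes were low on day 1. Stmn1, which destabilises microtubules in dividing cells, was at 670, 891 and 732 in sham, 169 and 141 on day 1, 827 and 863 on day 3 and 756 and 750 on day 7. It was 4.95-fold lower on day 1 (log2 difference -2.31 ± 0.28, adjusted p = 0.000604) in all 19 alternatives. Of the 16 cell cycle genes tested, 6 fell and none rose (median log2 difference -2.27), and 1 to 10 fell when a sample was left out, fewest without LT_flow day 1, and 3 by DESeq2. Topoisomerase Top2a was at 0, 62.8 and 72.6 in sham, 1.84 and 0.812 on day 1, 6.22 and 57.4 on day 3 and 65.3 and 52.2 on day 7 (day 1 against sham -5.37 ± 1.04, adjusted p = 0.00627). The proliferation marker Mki67 was at 0, 36.3 and 29.7 in sham and 1.84 and 2.84 on day 1 (-3.21 ± 0.82, adjusted p = 0.0198). For both, sham 1 with 40 members stood at 0, so sham and day 1 overlapped. Top2a missed the threshold without LT_flow day 1 (adjusted p = 0.128) and Mki67 without that sample, sham 2 or LT day 1 (0.187, 0.173 and 0.0954).

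Counted by cell, Mki67 or Top2a was detected in 0 of 40 members in sham 1, in 18 of 187 in sham 2 and in 5 of 63 in sham 3. It was found in 1 of 42 and 6 of 208 members on day 1, 2 of 13 and 14 of 99 on day 3, and 20 of 91 and 8 of 60 on day 7. The 0 of 40 allows up to 7.5% of cells with such a UMI, and sets no limit on cells that express either gene, since sham members were shallow. Of the 20 cells in LT day 7, 17 came from the second library. From day 1 to day 7, 356 of 6903 genes passed (5.16%), 249 higher (3.61%) and 107 lower (1.55%), and 10 of 16 cell cycle genes rose (median log2 difference 2.81 against 0.003 over all genes tested). Without the second LT day 7 library 911 genes passed, and 5 cell cycle genes rose (median 2.22). Without LT_flow day 1, 1 of them rose, and by DESeq2 4 did. Stmn1 rose by 2.28 (2.11 to 2.44 over 19 alternatives, past the threshold in each), while Top2a and Mki67 (5.65 and 4.10) missed the threshold without LT_flow day 1 (adjusted p = 0.203 and 0.172). The count over all genes was 59 without LT_flow day 1, 116 without LT day 1 and 225 without LT_flow day 7, and 200 without the third LT day 7 library.

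Against sham on day 7, 112 of 6903 genes passed (1.62%), 71 higher (1.03%) and 41 lower (0.594%). The count was 29 without sham 2, 53 without LT day 7, 56 without sham 3, 34 without the third LT day 7 library and 158 without the second. Of 11 MHC class I processing genes 8 rose and none fell (median log2 difference 1.67 against 0.009 over all genes tested). The count was 10 without the second LT day 7 library, 3 without sham 2 and 2 without the third LT day 7 library. Of 9 myeloid markers 3 were also higher (Lyz2, S100a8 and S100a9, median 2.22), with summed levels of 897.7 and 960.1 on day 7 against at most 361 in sham, and none was without the second LT_flow day 7 library. The part of myeloid and lymphoid RNA in these results was not tested, and without that myeloid-rich library 7 class I and 7 interferon genes rose.

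B2m, the light chain of class I molecules, was at 3606, 4031 and 3888 in sham, 2799 and 2660 on day 1, 9938 and 17610 on day 3 and 8258 and 16100 on day 7, 3.17-fold higher on day 7 (log2 difference 1.67 ± 0.32, adjusted p = 0.015). RT1-A2, a rat class I heavy chain, was at 177, 283 and 317 in sham, 1001 and 1560 on day 3 and 899 and 2446 on day 7, 6.41-fold higher (adjusted p = 0.00217). It belongs to a family of near-identical genes, so its counts may be shared with its neighbours in the family. Both day 7 samples lay above all sham samples for these genes. RT1-A2 and B2m missed the threshold without the third LT day 7 library (adjusted p = 0.0768 and 0.124), and B2m missed the threshold without sham 2, sham 3 or LT_flow day 7 (adjusted p = 0.104, 0.0802 and 0.0704).

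The peptide transporter Tap1 was at 25.8, 35.2 and 49.5 in sham and 147 and 237 on day 7 (2.37, adjusted p = 0.00499, with 0.0668 without sham 2 and 0.0829 without the third LT day 7 library). The immunoproteasome subunits Psmb8 and Psmb9 rose by 2.09 and 2.10 (adjusted p = 0.00193 and 0.00217) and passed in all 19 alternatives. Of 5 MHC class II genes 2 rose (median 2.96). They were the invariant chain Cd74, at 47.9, 22 and 3.3 in sham and 167 and 399 on day 7 (adjusted p = 0.0232), and RT1-Da (adjusted p = 0.0298), with 28.6% and 52.5% of their member UMIs put down to free RNA. RT1-Da no longer passed once that was subtracted (adjusted p = 0.139), and neither passed without sham 2 (0.159 and 0.199) or without the third LT day 7 library (0.122 and 0.164).

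Of 17 interferon response genes 9 rose on day 7 and none fell (median log2 difference 2.03), and 11 rose without the second LT day 7 library. Without LT day 7 altogether 4 rose, and without the third LT day 7 library 2. Gbp2, a guanylate-binding protein induced by interferon-gamma, was at 33.1, 74.9 and 106 in sham, 31.3 and 41.8 on day 1, 367 and 1328 on day 3 and 551 and 917 on day 7, 10.1-fold higher on day 7 (log2 difference 3.34 ± 0.48, adjusted p = 0.00224). The ubiquitin-like Isg15 was at 99.5, 202 and 115 and then 1327 and 440 (2.63, adjusted p = 0.00354), and the factor Irf7 at 25.8, 30.8 and 9.89 and then 90.9 and 136 (2.21, adjusted p = 0.00594). Without the third LT day 7 library Gbp2 and Irf7 missed the threshold (adjusted p = 0.0556 and 0.0703), and without LT day 7 Isg15 did (0.0595). Within the LT day 7 sample the libraries were uneven, with Gbp2 from 68.77 to 1860 and B2m from 3253 to 19220.

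Cxcl10, the interferon-induced chemokine that attracts T cells, was at 25.8, 121 and 425 in sham, 42.3 and 68.2 on day 1, 1175 and 2726 on day 3 and 838 and 861 on day 7. It rose from day 1 to day 7 (3.88, adjusted p = 0.00813), past the threshold in 16 of 19 alternatives, but not without LT day 1, LT_flow day 1 or the third LT day 7 library (adjusted p = 0.0895, 0.0999 and 0.0569). The LT day 7 libraries held 148.8, 211.5 and 2988, so the level of that sample rested on the third library, the other libraries lying within the sham range. Its difference from sham on day 7 did not pass (2.17, adjusted p = 0.102). The complement protease C1s was at 29.5, 52.9 and 26.4 in sham and 314 and 880 on day 7 (3.91 ± 0.45, adjusted p = 0.00103), and the schlafen gene Slfn4 at 18.4, 31.9 and 42.9 and then 544 and 347 (3.82 ± 0.35, adjusted p = 9.25e-05). Both passed in all 19 alternatives. Their LT day 7 libraries were uneven, at 446, 8.6 and 1003 for C1s and 99.2, 153 and 1891 for Slfn4, so C1s in the second library lay under sham. Without the third library the log2 differences were 3.66 and 3.01, both past the threshold. Ccl5, a chemokine of T and natural killer cells, was at 7.37, 2.2 and 6.6 in sham and 260 and 190 on day 7 (adjusted p = 0.00262, and 0.0647 without sham 2). Of its UMIs 16.4% were put down to free RNA. Ccl5 is itself in the lymphoid list, and the only member tested on day 7. Its counts are thus part of the summed lymphoid levels of 268.1 and 300.2. The part of lymphoid RNA in the result was not tested.

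Other genes among the 12 largest increases on day 7 were the interferon-induced GTPase Mx1, the ubiquitin-like Ubd, the class I gene RT1-N2, MGC108823 and Plaat3, at 0 to 7.37 CPM in sham and 25.6 to 260 on day 7. MGC108823 passed in all 19 alternatives, Mx1 in 18, and Ubd, RT1-N2 and Plaat3 missed the threshold without the third LT day 7 library (adjusted p = 0.147, 0.14 and 0.0983). Among the 12 largest decreases the secreted protein Cytl1 was at 254, 152 and 125 in sham and 12.8 and 14.9 on day 7 (-3.65, adjusted p = 0.00251), in all 19 alternatives. Pcp4l1, Lrrn1 and Khdrbs3 were lower too, past the threshold in 17 of 18, 13 of 17 and 8 of 18 alternatives.

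Day 7 was also compared with day 1. Nrp2, Gja1, Mrc1, Hif1a and Timp1 were picked for their values on day 1, and the comparison uses the same day 1 samples, so some movement toward sham is built into the choice. Nrp2 and Gja1 rose from day 1 to day 7 (1.33, adjusted p = 0.0345, and 1.76, adjusted p = 0.0141), as did Mrc1, while Hif1a fell by 1.30 and Timp1 by 2.37. Without LT day 1 these missed the threshold (adjusted p = 0.353, 0.134, 0.336, 0.226 and 0.0637), and without the third LT day 7 library Gja1, Mrc1 and Hif1a did (0.0506, 0.0525 and 0.0681). Nrp2, Gja1, Mrc1, Hif1a and Timp1 passed in 14, 15, 11, 14 and 18 of 19 alternatives. Cldn5, not called on day 1, was also higher on day 7 than on day 1 (1.24, adjusted p = 0.0158, and 0.128 without LT day 1 and 0.252 without LT_flow day 1). Ccl21 in day 7 against day 1, where the LT_flow day 7 sample rested on its first library, missed the threshold (adjusted p = 0.0581) and passed in 6 of 19 alternatives, among them DESeq2 (adjusted p = 0.00993), no TMM (0.00235) and the fit without the second LT day 7 library (1.15, adjusted p = 0.00178). The matrix genes Ltbp4 and Lama4 were below sham on day 7 (-2.26, adjusted p = 0.0273, and -1.44, adjusted p = 0.0438), but not past the threshold without LT day 7 (adjusted p = 0.242 and 0.379) or without the third library of that sample (0.0699 and 0.0883).

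**Figure D4:**
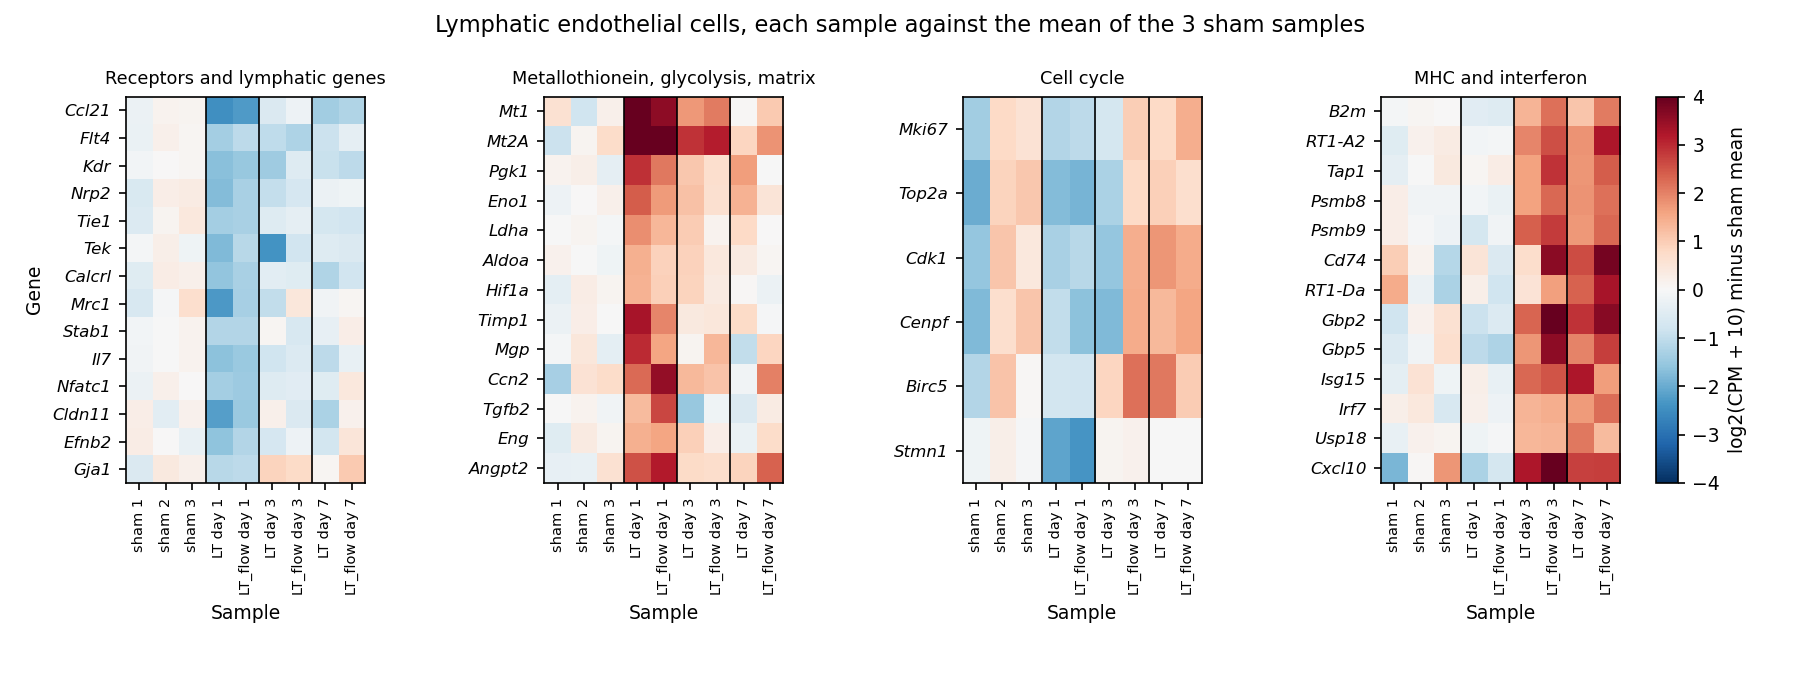
Change of listed genes in lymphatic cells of each sample, as log2(CPM + 10) minus the mean of the 3 sham samples; colours are saturated at 4 in either direction. Receptor genes are low in both day 1 columns, cell cycle genes are low there and, apart from Stmn1, in sham 1, metallothionein and glycolysis genes are high there, and class I and interferon genes are high on days 3 and 7.

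Whether a change was larger in lymphatic than in blood endothelial cells was tested as the interaction of gate and day, with the sample as a block. On day 1, 86 of 7238 genes passed (1.19%), 47 with a more positive change in lymphatic cells (0.649%) and 39 with a more negative one (0.539%). The count was 8 without LT_flow day 1, 22 without sham 2, 33 without LT day 1, 43 without sham 3 and 57 without the third LT day 7 library. On day 7, 26 passed (0.359%), 8 in the first direction (0.111%) and 18 in the second (0.249%), with 1 left without LT day 7, 5 without sham 2, 7 without sham 3, 15 without sham 1, 14 without the third LT day 7 library, and 49 without the second LT day 7 library. With days pooled, 5 passed (0.0691%), 2 in the first direction (0.0276%) and 3 in the second (0.0414%), and 1 to 10 when a sample was left out, with 1 without sham 1, sham 3 or LT day 7, and 1 without the third LT day 7 or the second LT_flow day 7 library. The CPM in the next sentences are scaled over both gates.

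Mt2A rose in lymphatic cells from 61.1, 126 and 198 in sham to 8695 and 5450 on day 1, and in blood cells went from 175, 658 and 640 to 936 and 1418, a log2 difference of changes of 4.51 ± 0.46 (adjusted p = 8.25e-05). Gpx3 went from 75.5, 90.4 and 104 to 604 and 562 in lymphatic cells and from 24, 32.2 and 32.9 to 13.8 and 16.2 in blood cells (3.67 ± 0.31, adjusted p = 8.83e-06). Tgfb2 went from 18, 21.3 and 15.7 to 56.4 and 167 in lymphatic cells and from 44.3, 33 and 32.2 to 8.37 and 22.8 in blood cells (3.73 ± 0.43, adjusted p = 0.000239). All 3 passed in all 18 alternatives, and Gpx3 and Tgfb2 moved in opposite directions in the 2 gates. On day 1 the fatty acid binding protein Fabp5 (3.84, adjusted p = 0.00434), Lgals9 (2.91, adjusted p = 0.000356), Ccn2 (2.67, adjusted p = 0.0195), Eng (1.86, adjusted p = 0.011) and Timp1 (1.54, adjusted p = 0.0235) also gained more in lymphatic cells. Fabp5 and Lgals9 passed in all 18, and Ccn2, Eng and Timp1 missed the threshold without LT_flow day 1 (adjusted p = 0.313, 0.0767 and 0.0501), passing in 14, 16 and 14 of 18. No alternative left out a single day 1 library. Unscaled Lgals9 in the LT_flow day 1 libraries was 355.2, 73.88 and 52.46 against 42.43 to 73.24 in sham, so that sample rested on its first library. Fabp5 was 305.2, 100.4 and 236.1 against 34.72 to 100.7, its second library lying inside the sham range.

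On the other side, Stmn1 lost more in lymphatic cells on day 1 (-1.75, adjusted p = 0.0129), where it went from 655, 860 and 697 to 162 and 137 while blood cells went from 210, 603 and 500 to 278 and 275. Emilin1, an elastic fiber protein that tethers lymphatic endothelium to its matrix, went from 104, 142 and 110 to 84.6 and 70 in lymphatic cells and from 2.77, 6.14 and 3.95 to 17.8 and 23.3 in blood cells (-2.91, adjusted p = 0.00434). Gucy1b1 lost more in lymphatic cells on both days (-3.66 and -4.82) and with days pooled (-3.75, adjusted p = 0.0454, past the threshold in 8 of 18 alternatives). Gpx3 gained more with days pooled (3.17, adjusted p = 0.000115) and on day 7 (2.95), and neither call held with free RNA subtracted (adjusted p = 0.0712 and 0.0555). On day 7 Lbp gained more (2.44, adjusted p = 0.0089). Without LT_flow day 1 the day 1 differences of Stmn1, Emilin1 and Gucy1b1 missed the threshold (adjusted p = 0.166, 0.107 and 0.206), and without LT day 7 the day 7 ones of Lbp and Gucy1b1 did (0.0503 and 0.218).

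For other genes the interaction missed the threshold. It was -2.65 for Ccl21 (adjusted p = 0.27), -1.36 for Flt4 (adjusted p = 0.0753), -0.61 for Kdr (adjusted p = 0.56) and 1.27 for Angpt2 (adjusted p = 0.313) on day 1. Ccl21 passed in 2 of 18 alternatives (adjusted p = 0.049 without LT_flow day 3 and 2.4e-13 with no filter on low counts), with values from -8.02 to -1.48. Flt4 passed in 2 (0.0401 without the second LT day 7 library and 0.0442 with no filter) and Angpt2 in 1 (0.0394 with no filter). The interaction was 0.47 for B2m (adjusted p = 0.669) and 0.66 for Gbp2 (adjusted p = 0.601) on day 7, and 1.11 for RT1-A2 (adjusted p = 0.103), which passed in 3 of 18 alternatives: without the second LT day 7 library (1.56, adjusted p = 0.00265), without the top 5% of UMIs (0.021) and with no filter (0.0401).

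**Figure D5:**
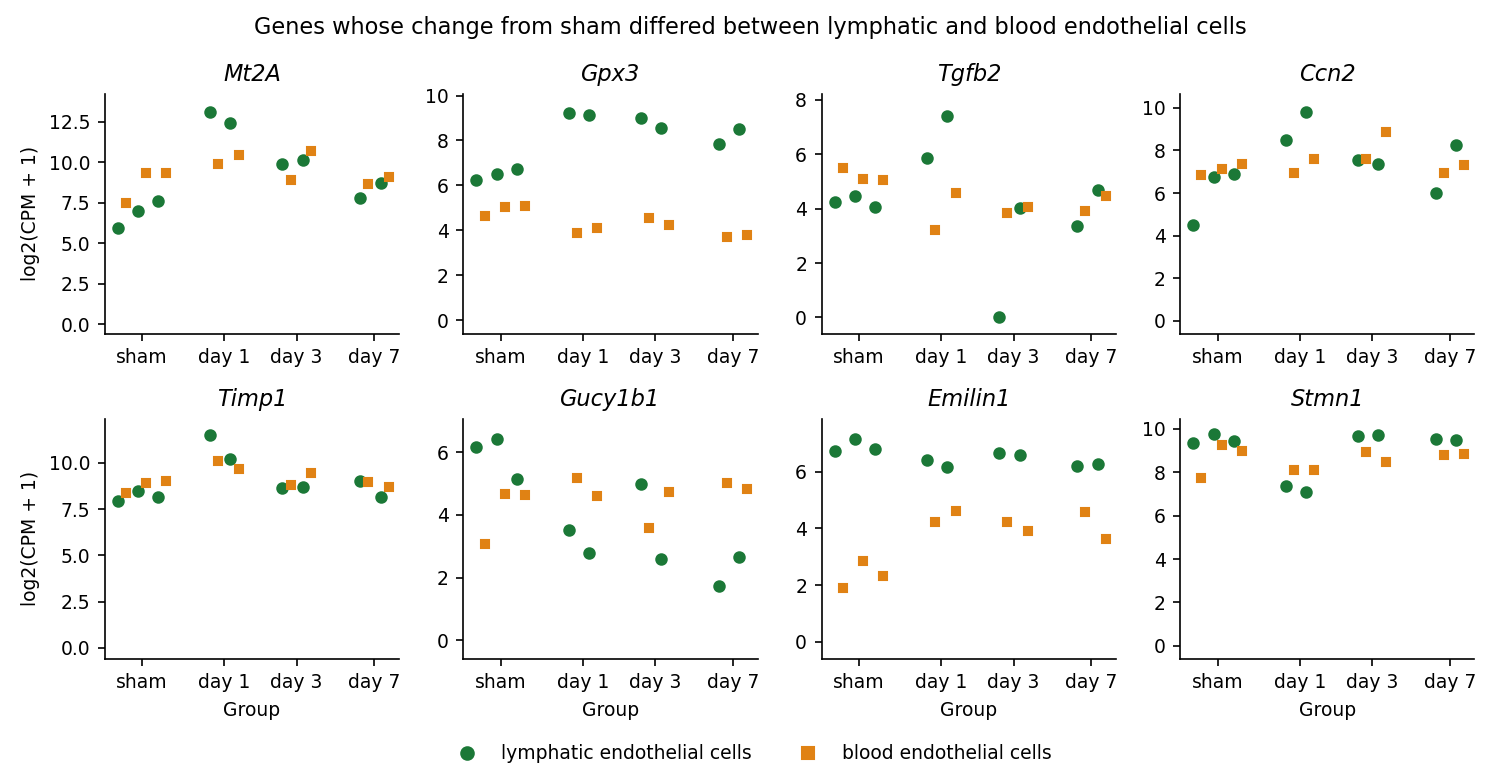
CPM of 8 genes in the summed lymphatic (circles) and blood endothelial (squares) cells of each sample, on a log2(value + 1) axis. Gpx3 and Tgfb2 rise in lymphatic cells and not in blood cells on day 1, and Gucy1b1 lies below sham in lymphatic cells of every transplanted sample, least so in LT day 3, while its blood values do not.

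Among the members themselves, the 109 cells with Cldn11, a gene of valve and collecting segments, held Foxc2 in 42.2% and the connexin Gja4 in 59.63%, against 11.67% and 25.5% of the 694 cells without it. They held Lyve1 in 86.24% against 92.8%, Reln in 66.06% against 76.08% and Ccl21 in 80.73% against 83.43%. Gja1, a connexin gene of the valve and collector list, went the other way from Foxc2 and Gja4. It was in 57.8% of the cells with Cldn11 against 68.88% of those without. Cells with Cldn11 were deeper, at a median of 6510 against 5236 UMIs, and they came from all 9 samples. These shares are a description with no test, and the part of depth in them was not tested.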

How the data were processed

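Single-cell RNA sequencing of rat bile duct gave 20 libraries in 9 samples, 1 matrix of LT_flow day 3 being not analysed here. The authors dissociated tissue with collagenase and dispase, lysed red cells and removed dead cells, and deposited raw UMI counts per gene and barcode (23999 genes). The matrix headers name Cell Ranger 4, while the submitters' processing notes name Cell Ranger 5.0.1 and Seurat 3.2.0. The genome build is not given in the sources used here, so no coordinates are printed.

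From 161207 barcodes with over 400 genes, cells were kept at 401 to 5999 genes when mitochondrial genes held under 25% and hemoglobin genes under 3% of their UMIs, limits taken from the study's supplement, where they are stated for human data. No doublet caller was run. Leaving out cells in the top 5% of UMIs of their library (84 members) was an alternative. Members were gated by detected markers, and members and gene lists were chosen with earlier results of these data known. Counts were summed per sample and tested with edgeR 4.0.16 (TMM, filterByExpr, quasi-likelihood test, Benjamini-Hochberg adjustment, threshold 0.05) under R 4.3.3, in 1 model over all 9 samples. Gate differences used the sample as a block. CPM were scaled by TMM over the members' sums, or over the sums of both gates where so stated, and those of single libraries were not scaled. Shares of cells were compared by exact permutation tests with scipy 1.17.1. Scripts were tested on simulated data with a fixed spread between samples, the same for every gene. The simulated pooled comparison held no differences between the days of an arm. There, 2-fold changes were recovered in 15% for transplanted against sham, 2% on day 1 and 0% for the pooled difference between gates. For 4-fold changes these were 93.5%, 69% and 42.5%, so a gene that missed the threshold may still have changed. These shares need not hold in the real samples, whose days differ, and LT_flow against LT was not simulated.

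Genes were named by a rule, as the 12 with the largest changes in each direction past the threshold with groups that did not overlap, for the gate, transplanted, LT, day 1 and day 7 comparisons with sham, and from the 15 most abundant, not all of which are reported here. From the fixed lists, for day 7 against day 1 and for differences between gates, the genes named were chosen after their values were seen. Comparisons by day, and the fits leaving out the second LT day 7, the third LT day 7 or the second LT_flow day 7 library, were chosen after seeing the data. Other alternatives were DESeq2 1.42.0, no TMM, no filter on low counts, at least 3 of 4 markers, thinning to 2000 UMIs, subtraction of free RNA, libraries as samples, and each sample left out. Samples of LT and LT_flow of the same day deviated together from their arm means (correlations of 0.741, 0.244 and 0.350 on days 1, 3 and 7 over 2622 genes), so the day was also tried as a block for pairing. Intervals cover counting error only.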

Additional observations from a re-analysis of the deposited data

Results flagged for a closer look

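Among 27 groups of 6 transplanted samples tested for a sample far from the rest, 4 exceeded the limit of 0.625 on the gap divided by the range, where chance gives about 5%. Psme2 gave 0.775, with LT_flow day 3 at 552 CPM and the others at 305 to 361. Vim gave 0.76, with LT day 7 at 8758 and the others at 2472 to 3980. Gucy1b1 gave 0.697, with LT day 3, the sample of 13 members, at 31.1 and the others at 2.33 to 11. Slc10a1, named for a bile acid transporter, gave 0.6253, just past the limit, with LT day 1 at 0 and the others at 5.83 to 9.32.

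Other results stand out because the change from sham differed between lymphatic and blood endothelial cells, by an interaction term in edgeR. On day 1 the difference of changes, in log2 units, was 3.25 for Mt1, 4.51 for Mt2A, 3.67 for Gpx3, 3.73 for Tgfb2, 2.67 for Ccn2, 1.86 for Eng, 3.58 for Pdgfb and 1.54 for Timp1. It was 1.92 for Lcn2, 2.47 for Serpinb6b, 2.91 for Lgals9, 1.70 for Pmepa1, 1.78 for Fdps and 3.84 for Fabp5. It was negative for Gucy1a1 (-3.31), Gucy1b1 (-3.66), Emilin1 (-2.91), Mmp14 (-2.91) and Stmn1 (-1.75). Mt2A, Gpx3, Tgfb2, Lgals9 and Fabp5 passed in all 18 alternatives, none of which left out a single day 1 library. Pmepa1 passed in 12 of 18, Fdps in 11 of 18 and Gucy1a1 in 10 of 17, and the other genes in 14 to 17 of 18.

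On day 7 it was 2.95 for Gpx3, 2.04 for Pmepa1 and 2.44 for Lbp, and -4.81 for Gucy1a1, -4.82 for Gucy1b1, -4.36 for Ptn, -2.60 for Emilin1 and -1.89 for Klf2. For Klf2, sham 1 stood at 516 CPM, the sample with high mural markers, and without it the adjusted p was 0.0875, and it passed in 10 of 18 alternatives. The other genes passed in 13 to 17 of 17 or 18, and Gpx3 missed the threshold with free RNA subtracted (adjusted p = 0.0555). With days pooled it was 3.17 for Gpx3, 1.80 for Pmepa1, -3.48 for Gucy1a1, -3.75 for Gucy1b1 and -2.57 for Emilin1. Gpx3 missed the threshold with free RNA subtracted (adjusted p = 0.0712). Pmepa1 passed in 7 of 18 alternatives, Gucy1a1 in 5 of 16, Gucy1b1 in 8 of 18 and Emilin1 in 9 of 18.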

How the results depend on the processing

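Counts of genes past the threshold moved with the test. With DESeq2 they were 163 for transplanted against sham, 144 for LT against sham, 562 on day 1, 219 for day 7 against day 1, and 54 on day 1 and 19 with days pooled for the difference between gates. With no filter on low counts they were 495, 401 and 28 (transplanted, LT, and LT_flow against LT), 380 on day 7, 622 for day 7 against day 1, 3311 between gates, and 264, 136 and 154 for the difference between gates on day 1, on day 7 and pooled. Without TMM they were 7 for LT and 1 for the pooled difference between gates, which was also 1 with free RNA subtracted. Without the top 5% of UMIs they were 17, 5 and 17 for transplanted, LT and the pooled difference. Libraries as samples gave 637 for day 7 against day 1. Without the second LT day 7 library the counts were 23, 5, 911, 49 and 13 for transplanted, LT, day 7 against day 1, and the difference between gates on day 7 and pooled. Without the third they were 34 and 200 for day 7 against sham and against day 1, and 57, 14 and 1 for the difference between gates on day 1, day 7 and pooled, the last also 1 without the second LT_flow day 7 library.

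Leaving out each sample gave 2 (sham 2) to 125 (LT_flow day 1) for transplanted, 1 to 180 for LT, 160 to 1211 on day 1, 29 to 154 on day 7, 59 to 459 for day 7 against day 1, 1878 to 2210 between gates, 0 to 0 for LT_flow against LT, and 8 to 123, 1 to 42 and 1 to 10 for the difference between gates on day 1, day 7 and pooled. A lone sample left in a day was assumed to vary like the other groups. The share of cells ranged from -1.36 to -0.684 points for transplanted, -1.51 to -0.834 for LT and 0.144 to 0.464 for LT_flow against LT. The endothelial share ranged from -13.2 to -2.43, -13.9 to -3.08, and -2.42 (without LT_flow day 1, where the sign turned) to 4.24. With the day as a block for pairing, LT_flow against LT kept 0 calls, with 520 genes at an unadjusted p under 0.05 against 217.

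Signs turned for Vim, Ccl21, Crem and Lyve1 in comparisons they had not passed, whose values without each sample ran up to 0.26 (Vim, transplanted), 0.71 (Vim, LT), 0.84 (Ccl21, LT_flow against LT) and 0.42 (Crem, LT_flow against LT) and down to -0.31 (Lyve1, day 1). Vim became -0.30, -0.14 and -0.19 for transplanted and -0.26, -0.01 and -0.09 for LT without the top 5% of UMIs, LT day 7, or its second library, and on day 1 0.03, 0.05 and 0.01 with no filter, without sham 2 or without LT_flow day 1. For LT_flow against LT, Ccl21 became -0.30, -0.05 and -0.35 without the top 5%, LT day 1 or LT_flow day 3, and Crem -0.02, -0.20, -0.11 and -0.08 without the top 5%, LT day 1, LT_flow day 3 or LT_flow day 7. Lyve1 on day 1 became 0.05 with no filter and 0.19 without LT day 1. Of 4416 alternative values of 240 gene results, 3704 kept direction and side of the threshold, 679 lost it, 15 gained it and 18 changed sign. The cause was not tested. Depth limits LT day 3, with 13 members.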
